A study of Mus musculus with 2 samples.

Results

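Red blood cells and reticulocytes were chosen by their hemoglobin content, as the cell barcodes in which the UMIs of 4 adult hemoglobin genes, Hba-a1, Hba-a2, Hbb-bs and Hbb-bt, made up 50% or more of all UMIs. A UMI (unique molecular identifier) marks 1 captured mRNA molecule. By this rule 205 of 14280 barcodes were chosen, 135 of 7659 in the library from 3-month-old mice and 70 of 6621 in the library from 24-month-old mice, and they are called RBC barcodes here. They were 1.76% of barcodes at 3 months (95% exact binomial interval 1.48 to 2.08) and 1.06% at 24 months (0.825 to 1.33). The share at 24 months was 0.600 of that at 3 months (0.443 to 0.806). Each age was 1 library, so no difference between the ages has a replicate check, no p-value is given, and every interval covers counting error only.

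Both libraries came from the brain without cerebellum of WT female mice, without any treatment named in the labels. Brains were flushed with saline through the heart, digested with papain and cleared of myelin on 37% Percoll, and cells that excluded the dead-cell dye 7-AAD were run on a droplet system that reads the 3′ ends of mRNA. The barcodes do not record the mouse. The blood left in a brain after the flush is not a sample of circulating blood, and how much blood was left cannot be told apart from age here. The libraries held 16861865 and 14481406 UMIs, and 69 barcode sequences occurred in both, of which 2 were RBC barcodes at 3 months and 0 at 24 months.

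Red blood cells carry oxygen on hemoglobin, a tetramer of a pair of alpha and a pair of beta chains, each with a heme group. A precursor divides, fills with globin mRNA, expels its nucleus and becomes a reticulocyte, which clears its mitochondria and ribosomes and loses its remaining mRNA as it matures. Adult mice make alpha chains from Hba-a1 and Hba-a2 and, in C57BL/6J mice, the strain named in the study's methods, beta chains from Hbb-bs and Hbb-bt.

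The hemoglobin share split the barcodes sharply. It was under 1% in 7511 barcodes at 3 months and 6542 at 24 months, and between 1% and 50% in only 13 and 9. It was 90% or more in 92 of the 135 and 52 of the 70 RBC barcodes. The median over RBC barcodes was 91.9% at 3 months (52.6 to 96.5) and 92.3% at 24 months (62.5 to 95.2).

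**Figure D1:**
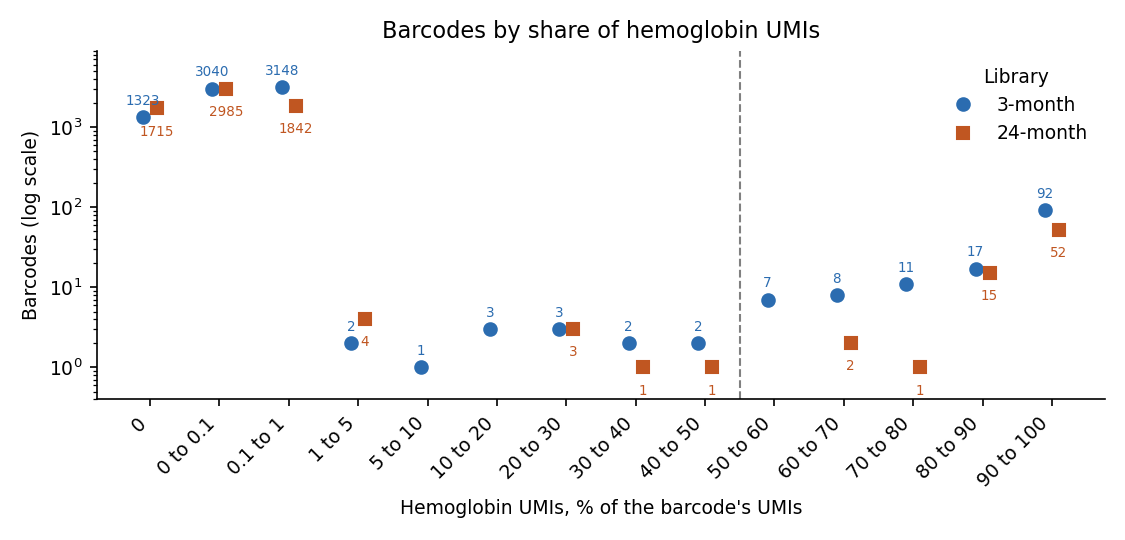
Number of barcodes (log scale) by the share of their UMIs from the 4 hemoglobin genes, for the 3-month and 24-month libraries, with the count beside each point. The dashed line is the 50% limit, and only 13 and 9 barcodes lie between 1% and 50%.

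The 3 RBC barcodes nearest above the limit stood at 52.6%, 53.6% and 56.4% at 3 months and at 62.5%, 63.0% and 72.9% at 24 months. The 3 nearest below it stood at 49.0%, 40.4% and 37.5% at 3 months and at 49.3%, 31.2% and 27.2% at 24 months. Neither those above nor those below were of one kind. Above the limit, the 3 at 24 months held 15, 20 and 14 UMIs of astrocyte markers. At 3 months the nearest 2 held 6 and 9 UMIs of markers of dividing cells, and the third held 11 of endothelial markers. Of the 13 between 1% and 50% at 3 months, 4 held 2 to 29 UMIs of markers of dividing cells and 13 to 92 UMIs of Car2, the carbonic anhydrase 2 gene. The other 9, and all 9 at 24 months, held no UMI of those markers, and in 6 and 3 of them astrocyte markers led while endothelial markers led in 1 and 4.

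RBC barcodes held a median of 3264 UMIs at 3 months and 3218 at 24 months, of which 2842 and 2862 were hemoglobin. All other genes together gave a median of 261 UMIs (49 to 1966) and 241 UMIs (76 to 1955), over 200 and 204.5 detected genes. By comparison, the other barcodes held medians of 1798 and 1793 UMIs over 926 and 974 genes. Mitochondrially encoded UMIs were a median of 0.252% and 0.293% of an RBC barcode's UMIs against 3.86% and 4.55% in the other barcodes. No RBC barcode exceeded the study's limit of 5% mitochondrial UMIs, but 67 and 34 of them fell under its minimum of 200 genes, leaving 68 and 36.

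The label was checked against its markers. Alas2, the gene of the first and rate-limiting enzyme of heme synthesis in red cell precursors, had a UMI in 123 of 135 and 61 of 70 RBC barcodes. Bpgm, which makes the molecule that lowers the oxygen affinity of hemoglobin, had one in 88 and 37. Hba-a1 and Hbb-bs were part of the rule. The 24-month RBC barcode nearest the limit, with 15 UMIs of astrocyte markers, held 0 Alas2 UMIs. At 3 months the label did not cover every RBC barcode, since 11 of the 135 held 3 or more UMIs of Mki67, Top2a, Birc5 and Cdk1, genes of dividing cells, whereas red blood cells and reticulocytes have no nucleus. These are described with the RNA-rich barcodes below and given no other name.

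The balance of the hemoglobin genes was counted over 383179 hemoglobin UMIs at 3 months and 207504 at 24 months. The 4 genes lie in pairs, Hba-a1 at chr11:32283511-32284465 and Hba-a2 at chr11:32296489-32297298 on the plus strand, and Hbb-bs at chr7:103826534-103828096 and Hbb-bt at chr7:103812524-103813996 on the minus strand (mm10, GENCODE M21). Within each pair the coding sequences were nearly the same, which matters for how reads are assigned. Over 429 coding bases Hba-a1 and Hba-a2 differed by 1 base, C381T counted from the A of the start codon, and Hbb-bs and Hbb-bt differed over 444 coding bases by C417T. The stretches around these bases are shown because they are where the coding sequences of each pair can be told apart. The differing base is in capitals.
Hba-a1: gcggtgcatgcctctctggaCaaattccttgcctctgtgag
Hba-a2: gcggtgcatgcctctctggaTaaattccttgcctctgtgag
Hbb-bs: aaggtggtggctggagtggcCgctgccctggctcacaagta
Hbb-bt: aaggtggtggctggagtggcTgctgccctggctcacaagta
After the stop codon the annotated Hba-a1 and Hba-a2 transcripts were the same at all 74 aligned bases, whereas Hbb-bs and Hbb-bt differed at 36 of 129. Reads from 3′ ends can thus separate Hbb-bs from Hbb-bt at many bases but Hba-a1 from Hba-a2 at few. How reads that match both copies were counted is not given in the sources used here, so the split between Hba-a1 and Hba-a2 and the absolute alpha share are uncertain.

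The stretches just upstream of the genes are shown because the 4 genes' UMIs are what the balance compares. Each is the 150 bases before the RefSeq start (GRCm38.p6), written in the direction of the gene, with 4 motifs in capitals on either strand. These are CCAAT (the CCAAT box), the CACCC core bound by Klf1 and its relatives, the TATAA of a TATA box, and GATAA as bound by GATA factors. GENCODE M21 places some of these starts further upstream.
Hba-a1 (chr11:32283522-32283671, plus strand): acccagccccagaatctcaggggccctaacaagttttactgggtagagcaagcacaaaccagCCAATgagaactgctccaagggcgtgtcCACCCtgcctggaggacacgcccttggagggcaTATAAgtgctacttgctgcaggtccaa
Hbb-bs (chr7:103827929-103828078, minus strand): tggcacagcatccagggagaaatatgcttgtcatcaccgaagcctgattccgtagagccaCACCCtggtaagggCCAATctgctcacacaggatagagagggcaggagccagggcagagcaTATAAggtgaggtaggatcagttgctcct
Hbb-bt (chr7:103813924-103814073, minus strand): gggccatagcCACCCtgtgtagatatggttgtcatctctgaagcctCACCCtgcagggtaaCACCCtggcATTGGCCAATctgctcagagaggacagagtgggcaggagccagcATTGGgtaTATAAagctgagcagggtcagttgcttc
Alas2 (chrX:150547267-150547416, plus strand): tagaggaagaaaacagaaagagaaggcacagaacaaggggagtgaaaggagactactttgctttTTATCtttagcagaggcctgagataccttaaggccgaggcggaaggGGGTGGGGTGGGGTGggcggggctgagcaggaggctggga
The Hba-a2 stretch was the same as that of Hba-a1 at all 147 aligned bases and is not repeated, and Hbb-bs and Hbb-bt differed at 39 of 148. The 3 printed globin stretches each held the first 3 motifs, with the TATAA 27 to 29 bases before the start. The Alas2 stretch held the GATAA and the CACCC on the opposite strand. Among 32851 promoter stretches of this length, 24.5% held the CCAAT, 37.4% the CACCC, 14.2% the TATAA and 13.3% the GATAA motif. A match is a description and not evidence of a site.

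In RBC barcodes alpha-globin UMIs were 50.5% of hemoglobin UMIs at 3 months (50.3 to 50.6) and 52.5% at 24 months (52.3 to 52.7). Single RBC barcodes ranged from 34.3% to 64.3% around a median of 51.3% at 3 months, and from 42.6% to 69.9% around 52.7% at 24 months. The ranges of the ages overlapped, with both ends higher at 24 months.

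Hbb-bs was the main beta gene in every RBC barcode. It gave 82.9% of beta-globin UMIs at 3 months (82.7 to 83.1) and 86.7% at 24 months (86.5 to 86.9), a gap of 3.77 percentage points. Over single RBC barcodes its share ran from 66.8% to 98.3% with a median of 83.0% at 3 months, and from 76.4% to 98.5% with a median of 87.9% at 24 months. Hba-a1 gave 58.0% of alpha-globin UMIs at 3 months (57.8 to 58.2) and 59.4% at 24 months (59.1 to 59.7), with the uncertainty of that split stated above.

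The beta balance varied with depth, both of hemoglobin and of other RNA. Among RBC barcodes with fewer than 150 non-hemoglobin UMIs, Hbb-bs gave 92.4% of beta-globin UMIs at 3 months (32 barcodes) and 95.4% at 24 months (18 barcodes). With 150 to under 300 such UMIs it gave 82.9% and 85.2% (44 and 27 barcodes), with 300 to under 600 it gave 84.8% and 85.6% (25 and 15), and with 600 or more 77.4% and 85.1% (34 and 10). The share at 24 months was the higher one in each of the 4 ranges. Across RBC barcodes, Spearman's rho between the Hbb-bs share and the non-hemoglobin UMIs was -0.72 over 135 barcodes and -0.58 over 70, and with the hemoglobin UMIs it was -0.40 and -0.65. These describe barcodes that share a library and a depth. From 150 non-hemoglobin UMIs up, the 24-month shares lay within 85.1% to 85.6%.

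**Figure D2:**
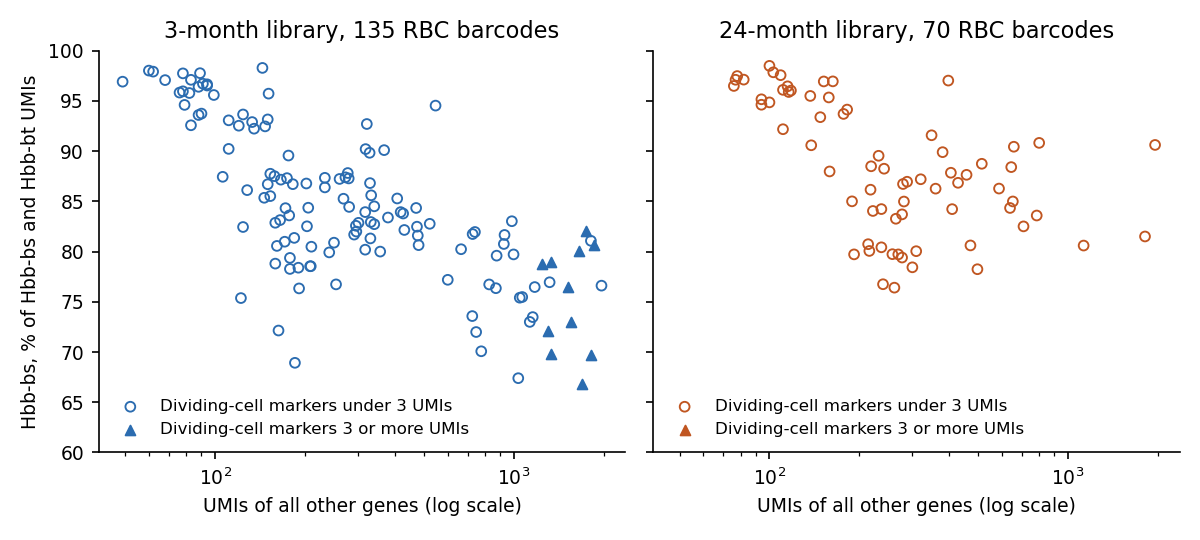
Hbb-bs as a share of Hbb-bs and Hbb-bt UMIs in each RBC barcode, against its UMIs of all other genes (log scale), at 3 months (left) and 24 months (right). Filled triangles mark barcodes with 3 or more UMIs of dividing-cell markers, 11 at 3 months and 0 at 24 months, and barcodes with few other UMIs lie near the top.

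A set of RBC barcodes stood at the upper end. Hbb-bs exceeded 93% of beta-globin UMIs in 24 RBC barcodes at 3 months and 22 at 24 months, 17.8% (11.7 to 25.3) and 31.4% (20.9 to 43.6) of them. These held a median of 88.5 and 113 non-hemoglobin UMIs. They held a mean of 1.29 and 1.23 Alas2 UMIs each, against 3.97 and 3.92 in the other RBC barcodes. They were also shallower, with a median of 1248 and 1541.5 hemoglobin UMIs against 3001 and 3150. Per 10000 non-hemoglobin UMIs their Alas2 was not lower, at 116 and 93.5 against 74.3 and 89.1. The 93% limit was set after the values were seen.

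Besides the 4 hemoglobin genes, 682 genes had 20 or more UMIs over all RBC barcodes. Levels below are UMIs per 10000 non-hemoglobin UMIs of RBC barcodes, so they do not move with the globin UMIs. The total behind them was 62042 UMIs at 3 months and 23984 at 24 months. Of the 682 genes, 129 (18.9%) were at least 2-fold higher than in the other barcodes in both libraries and 7 (1.03%) were at least 2-fold lower in both, while the median gene stood at 0.988 and 1.00 of its level in the other barcodes. The 129 genes made up 20.9% and 14.5% of the non-hemoglobin UMIs of RBC barcodes, against 2.09% and 2.15% in the other barcodes.

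The 15 non-hemoglobin genes with most UMIs differed widely in how they compared with the other barcodes. Those at least 2-fold above the other barcodes in both libraries included Alas2, Gpx1, Car2, Mkrn1, Ftl1, Ubb and Sec61g, a subunit gene of the channel that carries proteins into the endoplasmic reticulum. The nuclear RNA Malat1 came first, with 3575 and 1037 UMIs, at 0.436 and 0.468 of its level in the other barcodes. Ttr, the transthyretin gene of the choroid plexus, Apoe and Cst3, genes with high levels in glia, and mt-Atp6 stood at 0.452 to 0.705 of their level in the other barcodes at 3 months and at 0.718 to 1.07 at 24 months.

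The 15 genes highest over the other barcodes, ranked by the lower of the 2 libraries' ratios, included Apol11b, Alas2, Hbq1b, Rec114, Isg20, Ube2l6, Mkrn1, Bpgm, Fam220a, Gda, Fech, Cd24a and Ube2c. Alas2 was 2309-fold and 4908-fold higher per non-hemoglobin UMI. Ube2l6, an E2 enzyme for ubiquitin and ISG15, was 193-fold and 134-fold higher and Mkrn1, a ubiquitin ligase gene, was 111-fold and 119-fold higher. Hbq1b, a theta-globin gene beside Hba-a1, had 22 and 7 UMIs. The embryonic globin genes were near absent, with 1 UMI of Hbb-y at 3 months and 0 UMIs of Hba-x, Hbb-bh1 and Hbb-bh2 in both libraries.

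Between the ages, 169 of the 682 genes (24.8%) were at least 2-fold lower per non-hemoglobin UMI at 24 months and 74 (10.9%) at least 2-fold higher, with counting intervals that left out 1 for 118 and 60 of them. For the same genes in the other barcodes, which rest on many more UMIs, 33 (4.84%) were 2-fold lower and 10 (1.47%) higher. The median log2 ratio of 24 to 3 months was -0.08 over all 682 genes and -0.69 over the 129 genes that were higher in RBC barcodes than in the others. A gene high at 1 age alone could reach 20 UMIs through that age, so these counts describe the genes that passed and not whole lists, and age and library cannot be told apart. The RBC barcodes with 600 or more non-hemoglobin UMIs, described further on, held 40166 of these UMIs at 3 months and 9780 at 24 months. Without them fewer genes reached 20 UMIs, and 19 of those genes were 2-fold lower and 17 higher. The number of genes behind these 2 counts is not given here, so they cannot be set beside the 24.8% and 10.9%. Among the 19, 14 were also among the 169. Of the 169, 147 had fewer than 20 UMIs left and could not be called. The smaller counts thus do not show whether those 147 genes differed in the remaining RBC barcodes.

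Heme synthesis and iron genes split into those at a like level and those lower. Of the 16 genes of this list reported here, 9 had 20 or more UMIs. Of these, 5 were 2-fold lower at 24 months and none 2-fold higher, with a median log2 ratio of -1.63. Over all 682 genes, 24.8% were lower and 10.9% higher. Alas2 had 0 to 13 UMIs with a median of 3 in single RBC barcodes at 3 months and 0 to 12 with a median of 2 at 24 months. Its level was 76.1 at 3 months and 89.6 at 24 months, a ratio of 1.18 (0.998 to 1.39), and the barcodes of the ages overlapped. Ftl1, the ferritin light chain gene, stood at 122 and 134, a log2 ratio of 0.14 (-0.05 to 0.33). Fech, the ferrochelatase gene that inserts iron as the last step of heme synthesis, stood at 24.7 and 15.01, a ratio of 0.609 (0.411 to 0.880).

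Fth1, the other ferritin gene of the list, had 442 and 140 UMIs, a ratio of 0.819 (0.673 to 0.993). Several genes of other steps and of iron handling had few UMIs at 24 months. Cpox, the coproporphyrinogen oxidase gene, had 47 UMIs and 0, at least 6.06-fold lower if 3 counts over the library are taken as the limit of a count of 0. On the same basis Alad, the gene of the second step, had 24 and 0 UMIs and was at least 3.09-fold lower. Urod had 27 and 2 UMIs (0.192, 0.0221 to 0.76). The mitochondrial iron importer gene Slc25a37 had 71 and 7 (0.255, 0.0990 to 0.553) and Glrx5, needed for iron-sulfur clusters, had 161 and 17 (0.273, 0.155 to 0.451). Of the 47 Cpox UMIs at 3 months, 97.9% lay in RBC barcodes with 600 or more non-hemoglobin UMIs. Without those barcodes Glrx5 had 29 and 11 UMIs, a ratio of 0.584 (0.263 to 1.20).

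Membrane and skeleton genes were lower at 24 months in sum. The 18 genes reported here summed to 380 UMIs at 3 months and 23 at 24 months. The ratio was 0.157 per non-hemoglobin UMI (0.0980 to 0.238), against 1.06 in the other barcodes. In those other barcodes Cd47 (3351 and 3004 UMIs) and Add1 (1022 and 922) had the most UMIs of the list. Some genes of the list were lower there too, at a ratio of 0.0320 for Slc4a1 (36 and 1) and 0.144 for Rhd (24 and 3). Others were not, such as Epb41 (396 and 446) and Gypc (72 and 114). The 1.06 thus does not show that the drop was confined to RBC barcodes. Of 5 genes with 20 or more UMIs, 4 were 2-fold lower, beside 24.8% of all 682 genes. The median log2 ratio of the 5 was -2.95. Rhd, of the Rh blood group, had 76 and 0 UMIs, at least 9.79-fold lower. Slc4a1, the anion exchanger band 3, had 63 and 2 (0.0821, 0.00973 to 0.309), and 2 and 2 without RBC barcodes of 600 or more non-hemoglobin UMIs (1.54, 0.112 to 21.2). Cd47, the surface signal that holds off phagocytes, had 68 and 5 (0.190, 0.0598 to 0.466). Epb41, the protein 4.1 gene of the membrane skeleton, had 34 and 10 (0.761, 0.335 to 1.58).

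Gas exchange and antioxidant genes were mixed. Car2, which interconverts carbon dioxide and bicarbonate, had 643 UMIs in 47 RBC barcodes (0 to 43 each) at 3 months and 38 UMIs in 6 (0 to 19 each) at 24 months, a ratio of 0.153 (0.107 to 0.212). Bpgm stood at 58.7 and 48.8, a ratio of 0.831 (0.669 to 1.03). Of the 7 glycolysis and gas exchange genes with 20 or more UMIs, 1 was 2-fold lower and 2 were higher, Aldoa and Ldha. Aldoa stood at 0.614 and 0.978 of its level in the other barcodes and Ldha at 0.809 and 1.40. In the other barcodes both were also higher at 24 months, at 1.37 and 1.49 times. Of 7 antioxidant genes with 20 or more UMIs, 4 were lower and 1 was higher, beside 24.8% and 10.9% over all 682 genes. The median log2 ratio of the 7 was -1.19. The lower ones were Gpx1, the glutathione peroxidase 1 gene (612 and 104 UMIs, ratio 0.440, 0.354 to 0.542), Prdx2 of the peroxiredoxins (293 and 24, 0.212, 0.134 to 0.322), Blvrb, the biliverdin reductase B gene (119 and 9, 0.196, 0.0873 to 0.384), and Gpx4 (68 and 8, 0.304, 0.126 to 0.634). Prdx6 was the higher one, with 22 and 24 UMIs, at 0.506 and 1.47 of its level in the other barcodes.

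Of 11 genes of protein and organelle clearance with 20 or more UMIs, 2 were 2-fold lower (Trim10 and Xpo7) and none higher, beside 24.8% lower and 10.9% higher over all 682 genes. Their median log2 ratio was -0.33. Ahsp, which encodes a chaperone of alpha chains, is not named in the files. Mkrn1 stood at 66.7 and 67.5 (ratio 1.01, 0.839 to 1.22), Ube2l6 at 54.6 and 43.8 (0.801, 0.637 to 1.00), and Bnip3l, a receptor for the removal of mitochondria, at 29.3 and 23.3 (0.796, 0.579 to 1.08). Without RBC barcodes that held 3 or more UMIs of another class, the log2 ratio was -1.25 for Mkrn1 and -0.23 for Ube2l6. That kept 66 and 16 RBC barcodes, since 55 and 52 held 3 or more UMIs of choroid plexus markers, nearly all of them Ttr. Not counting choroid plexus and dividing-cell markers as another class, a choice made after seeing the data, gave 0.08 for Mkrn1 and -0.05 for Ube2l6. Ubb, a ubiquitin gene, stood at 131 and 75.9 (0.580, 0.491 to 0.682). Gabarapl2, of the autophagy machinery, stood at 18.1 and 30.0 (1.66, 1.22 to 2.26).

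Among the other red cell transcripts, Isg20, an exonuclease gene, stood at 13.4 and 16.7 (1.25, 0.833 to 1.84). Hemgn, a nuclear protein gene of precursors, had 71 and 2 UMIs (0.0729, 0.00866 to 0.273), and Cldn13 had 28 and 0, at least 3.61-fold lower. In all, 3 of 6 reported genes of this list with 20 or more UMIs were 2-fold lower, Hemgn, Tspo2 and Cldn13, and none was higher. Over all 682 genes these shares were 24.8% and 10.9%. The median log2 ratio of the 6 was -1.37. Of the 12 regulator genes only Klf1, a master activator of beta-globin, reached 20 UMIs, with 28 and 1 (0.0924, 0.00226 to 0.559). Gata1 had 11 and 0 UMIs, and Kit and Myb had 0 in both.

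**Figure D3:**
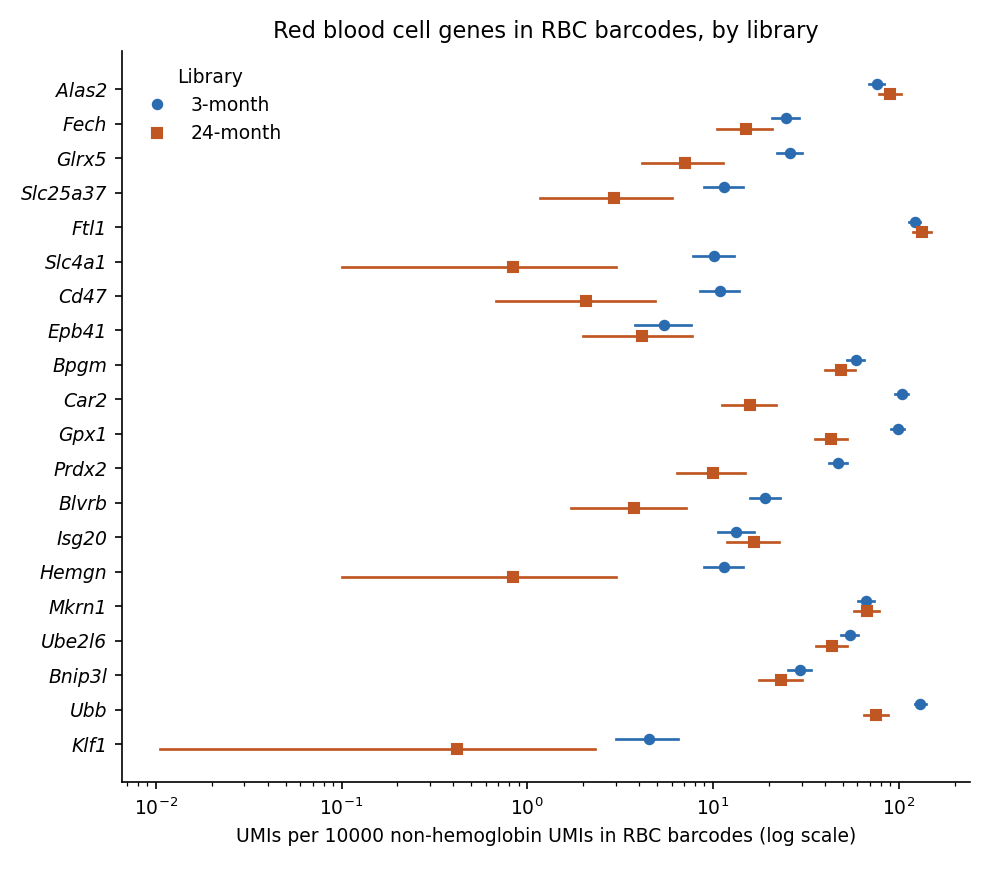
UMIs per 10000 non-hemoglobin UMIs in RBC barcodes (log scale) for 20 genes of red blood cells at 3 months (circles) and 24 months (squares), with exact 95% Poisson intervals as lines. Alas2, Ftl1 and Mkrn1 lie close together at the 2 ages, whereas Car2, Slc4a1, Hemgn and Klf1 lie apart.

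Ribosomal protein genes, whose mRNAs are lost as a reticulocyte matures, were 532 and 641 UMIs per 10000 in sum, a ratio of 1.21 (1.13 to 1.28), beside 1.23 in the other barcodes. Of 74 with 20 or more UMIs, 8 were 2-fold higher and 1 lower, beside 10.9% higher and 24.8% lower over all 682 genes. Mitochondrially encoded genes summed to 318 and 497, a ratio of 1.56 (1.45 to 1.68). In the other barcodes they summed to 418 and 500, a ratio of 1.20.

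By the rule for named genes, the lowest ratios whose interval left out 1 included those of Fam126a, Tmcc2, Isg15, Anp32b, Hemgn, Cdkn2d, Tcp11l2, Slc4a1 and the histone gene Hist1h2ap, which had 94 and 0 UMIs. Isg15, an interferon-induced gene, had 78 and 2 UMIs, whereas its level in the other barcodes was 2.05 times as high at 24 as at 3 months. Slc4a1, Hemgn and Hist1h2ap were lower in the other barcodes too, at 0.0320, 0.0886 and 0.291 times. The rest of those named stood at 0.747 to 1.07 times there. The highest ratios were 4.85 for Klf2 (1.93 to 13.2), 4.31 for Ramp1, 4.23 for Mgp, 3.74 for Clpb, 3.41 for Crip1, 3.40 for Igfbp7, 3.28 for Rpl27, 3.23 for Timp3, 3.20 for Ttr (2.77 to 3.70) and 3.16 for Smpdl3a. In the other barcodes the level of all 10 was also above that at 3 months, at 2.18 times for Crip1, 2.01 for Ttr, 1.95 for Mgp, 1.58 for Igfbp7 and 1.49 for Klf2, and between 1.02 and 1.297 times for the other 5. Ttr had a median of 2 UMIs (0 to 13) per RBC barcode at 3 months and of 4 (0 to 26) at 24 months.

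RNA-rich RBC barcodes, those with 600 or more non-hemoglobin UMIs, were 34 of 135 at 3 months, or 25.2% (18.1 to 33.4), and 10 of 70 at 24 months, or 14.3% (7.07 to 24.7). This limit was set after the values were seen. At 3 months they held a median of 1099 non-hemoglobin UMIs over 613 genes, against 178 over 155 in the other RBC barcodes, and 40166 of the 62042 non-hemoglobin UMIs. They held 96.3% of the Car2, 84.8% of the Gpx1, 98.7% of the Rhd and 35.2% of the Alas2 UMIs of 3-month RBC barcodes, and all UMIs of Klf1 and of Ctse, the cathepsin E gene. At 24 months they held 97.4% of the Car2, 46.2% of the Gpx1 and 29.3% of the Alas2 UMIs, and Rhd and Ctse had none to hold. Of the 38 Car2 UMIs at 24 months, 1 RNA-rich barcode held 19 and another 12. Those with most other RNA, at 1955 and 1809 UMIs, held 3 and 1 Car2 UMIs and 20 and 14 of astrocyte markers. Hbb-bs gave 77.4% of the beta-globin UMIs of RNA-rich barcodes at 3 months (77.1 to 77.8), against 85.4% (85.2 to 85.6) in the other RBC barcodes of that library, and 85.1% (84.7 to 85.6) against 87.1% (86.9 to 87.4) at 24 months.

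Markers of dividing cells lay in these barcodes too. Mki67, Top2a, Birc5 and Cdk1 summed to 138 UMIs in RBC barcodes at 3 months and 0 at 24 months, at least 17.8-fold lower per non-hemoglobin UMI. The 11 RBC barcodes with 3 or more UMIs of these markers were 8.15% of RBC barcodes at 3 months (4.14 to 14.1). At 24 months 0 of 70 allows a share of up to 4.29% by a limit of 3 counts. In the 11 RBC barcodes hemoglobin was 52.6% to 66.7% of UMIs, and Hba-a1 gave 64.1% of alpha-globin UMIs (63.2 to 64.9). The 4 barcodes under the 50% limit that held these markers had Hba-a1 at 65.7% to 79.7% and Hbb-bs at 68.4% to 72.7%.

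Without the RNA-rich barcodes the ratios between the ages were different in both directions. The ratio became 0.765 (0.626 to 0.932) for Alas2, 0.649 (0.489 to 0.855) for Bpgm, 0.661 (0.523 to 0.830) for Mkrn1 and 0.788 (0.602 to 1.03) for Ube2l6. Gpx1 went the other way, from 0.440 to 0.927 (0.653 to 1.31). Cd24a, a surface protein gene of precursors, went from 0.327 to 0.788 (0.449 to 1.35). Car2 had 24 and 1 UMIs left, a ratio of 0.0642 (0.00156 to 0.394), and Prdx2 had 36 and 9 (0.385, 0.163 to 0.815). Several genes with low ratios had too few UMIs left to compare, with 1 and 2 for Hemgn (3.08, 0.160 to 182), 5 and 2 for Trim10 (0.616, 0.0587 to 3.76), and 1 and 0 for both Rhd and Cpox. Counted per RBC barcode instead, with all of them kept, Alas2 stood at 3.50 and 3.07 UMIs and Mkrn1 at 3.07 and 2.31.

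Summed over RBC barcodes, markers of other cells were present at about their level elsewhere or below it, but single RBC barcodes differed. At 3 and 24 months, 14 and 8 RBC barcodes held 3 or more UMIs of astrocyte markers, with up to 14 and 20 each. For endothelial markers 11 and 7 did, with up to 15 and 8 each. The 6 astrocyte markers summed to 157 and 108 UMIs, 0.634 and 1.28 times their level per non-hemoglobin UMI in the other barcodes. The 6 endothelial markers summed to 104 and 57 (1.00 and 0.992 times), the 6 microglial markers to 167 and 36 (0.488 and 0.505 times) and the 6 neutrophil markers to 46 and 8 (0.375 and 0.456 times). Of 5 platelet markers 12 and 11 UMIs were found, with Ppbp at 0 in both. Choroid plexus markers gave 346 and 429 UMIs, all but 1 of them Ttr, with Folr1, Clic6 and Kcne2 at 0 in both. Among these sums, only that of the markers of dividing cells exceeded its level elsewhere by more than 3-fold, at 26.4 times at 3 months. The part of these UMIs in the differences between the ages was not tested.

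Hemoglobin UMIs outside RBC barcodes were 24153 at 3 months and 13596 at 24 months, so that RBC barcodes held 94.1% and 93.9% of all hemoglobin UMIs. Of those outside, 8704 and 3341 lay in the 13 and 9 barcodes between 1% and 50%. The remaining 7511 and 6542 barcodes held 15449 and 10255, and 82.4% and 73.8% of them held at least 1. Over all barcodes under 50% the level was 14.7 UMIs per 10000 at 3 months and 9.54 at 24 months. In those under 1% it was 9.43 (9.28 to 9.58) and 7.21 (7.07 to 7.35), so the 24-month level was 0.764 of the 3-month level (0.745 to 0.783). Over the same step, the hemoglobin UMIs of RBC barcodes went from 2.27% to 1.43% of the library's UMIs, a ratio of 0.631. Both were lower at 24 months, and 2 libraries give no relation between them.

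The level was of the same order in all classes. Over the 7 classes with 50 or more such barcodes at 3 months it lay between 7.98 and 10.1 per 10000, and over the 5 at 24 months between 6.64 and 8.61. Astrocyte-like barcodes stood at 9.95 (9.68 to 10.2) and 8.06 (7.77 to 8.36), endothelial-like at 9.30 and 6.74, microglia-like at 9.44 and 6.64 and choroid plexus-like at 10.1 and 8.61. Hemoglobin UMIs were present at a low level in all of them. Whether these UMIs came from free RNA or from the cells was not tested. The level was lower at 24 months in each of the 5 classes compared.

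Deeper barcodes held more hemoglobin UMIs. Barcodes under 1200 UMIs held 1.17 and 0.921 hemoglobin UMIs each, whereas those with 5000 or more held 5.75 and 4.62. Per 10000 UMIs the order was the reverse, from 11.2 and 8.51 in the former to 8.77 and 6.51 in the latter. With each barcode thinned to 500 UMIs, 42.6% and 34.1% of the shallowest barcodes and 35.4% and 27.8% of the deepest held a hemoglobin UMI. Barcodes over the mitochondrial limit of 5% stood at 9.35 and 7.13, next to 9.46 and 7.26 in those within it.

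The beta balance of the other barcodes moved in the same direction between libraries as that of RBC barcodes. Hbb-bs gave 84.7% of their beta-globin UMIs at 3 months (84.0 to 85.5) and 90.6% at 24 months (89.9 to 91.3), above RBC barcodes by 1.83 and 3.95 percentage points. By class it lay between 81.0% and 89.8% at 3 months and between 87.7% and 92.4% at 24 months. The alpha share did not follow RBC barcodes. Over all barcodes under 50% it was 46.1% and 42.5%. In those under 1% it was 40.3% (39.6 to 41.1) and 36.0% (35.0 to 36.9), lower than in RBC barcodes by 10.2 and 16.5 points (differences of -10.2 and -16.5), and lower at 24 months where RBC barcodes were higher. In each class with 50 or more barcodes it stayed under the RBC value, at 37.5% to 43.3% and 34.5% to 41.6%. Hba-a1 gave 57.7% and 56.7% of alpha-globin UMIs.

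**Figure D4:**
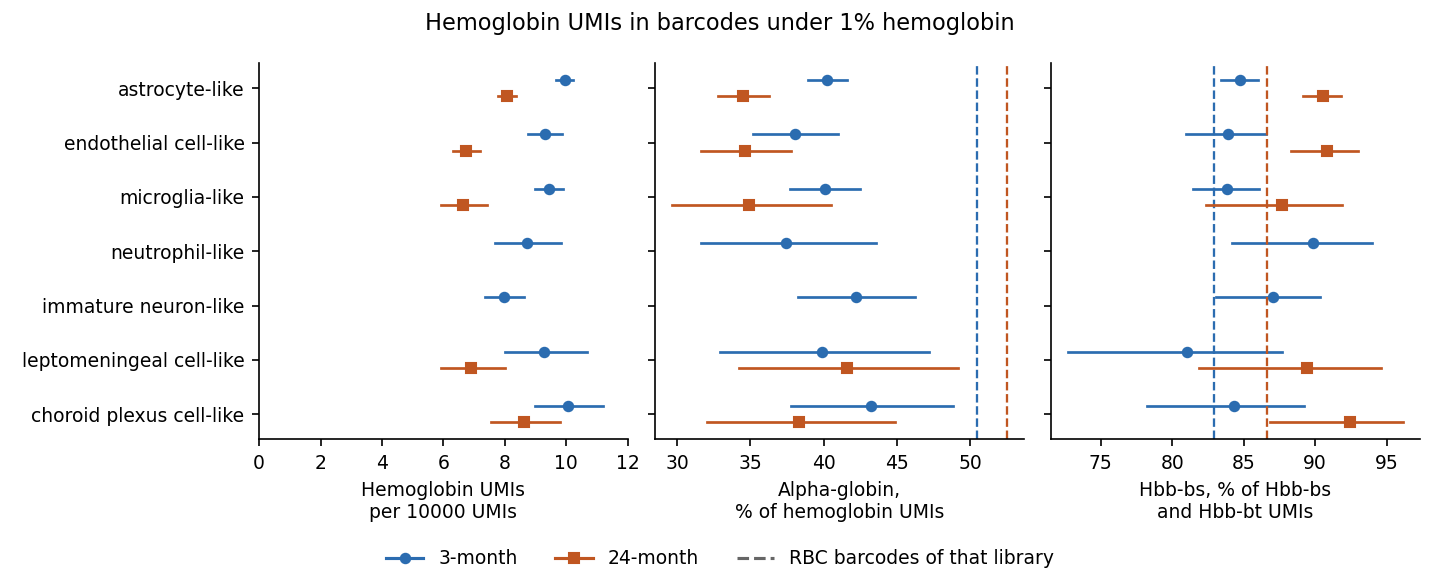
Hemoglobin UMIs per 10000 UMIs, the alpha-globin share and the Hbb-bs share in barcodes under 1% hemoglobin, by class with 50 or more barcodes, at 3 months (circles) and 24 months (squares) with exact 95% binomial intervals. Dashed lines mark RBC barcodes of the same library, at 50.5% and 52.5% for alpha-globin and 82.9% and 86.7% for Hbb-bs, and every class lies to the left of its line for alpha-globin.

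Alas2 mRNA was found outside RBC barcodes too. In barcodes under 1% hemoglobin it had 37 UMIs at 3 months and 23 at 24 months. Per hemoglobin UMI the ratio between the ages was 0.936 (0.531 to 1.62), next to 0.841 (0.713 to 0.990) in RBC barcodes. Its level per 10000 hemoglobin UMIs was higher outside, at 23.9 and 22.4, than in RBC barcodes, at 12.3 and 10.4.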

How the data were processed

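Brain cells of female mice aged 3 or 24 months were profiled by droplet single-cell RNA-seq, with 1 library per age. The authors deposited raw counts: whole numbers of UMIs per gene and barcode, without normalization. The submitters' notes name Cell Ranger, mm10 and Seurat 3.2.0, and the study's methods name more than 1 Cell Ranger version without saying which made these files.

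All barcodes were kept, without the study's filter (200 to 4000 genes, at most 5% mitochondrial UMIs). No doublet caller was run. The rule, marker lists and gene lists were chosen with earlier results of these data known. UMIs were summed over RBC barcodes and over all others. A gene was called at a 2-fold ratio per non-hemoglobin UMI if it had 20 or more UMIs over both ages. Shares have Clopper-Pearson, levels Poisson and ratios conditional binomial intervals (95%). A count of 0 was set to 3 over the library for ratios, and the limit of 3 counts was also used for shares of 0. The ratio code was tested on simulated data. Depth limits precision most for genes with few UMIs, since RBC barcodes held 62042 and 23984 non-hemoglobin UMIs in all.

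Named genes were those of the lists, the 15 with most UMIs, the 15 highest over other barcodes, and up to 10 per direction between ages whose interval left out 1. Certain genes are not reported here and were left out of the lists. Classes of other barcodes came from Leiden clustering of 8995 barcodes that passed the filter (2000 variable genes, 50 components, 15 neighbors, resolution 1) and were named by markers. Python 3.11.15, numpy 2.4.6, scipy 1.17.1, pandas 2.3.3, scanpy 1.11.5, leidenalg 0.10.2, igraph 0.11.9, biopython 1.88 and matplotlib 3.10.9 were used. Gene positions came from GENCODE M21, and upstream sequences from RefSeq (4 hemoglobin genes and Alas2 matched). Alternatives were other hemoglobin limits (30% and 80%), the study's filter, RBC barcodes without markers of other classes, equal weights, other UMI minimums (10 and 50) and, for other barcodes, limits of 5% and 1%.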

Additional observations from a re-analysis of the deposited data

How the results depend on the processing

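No paired analysis was possible because each age has 1 library and the labels carry no replicate numbers, and for the same reason no library was left out. Values are at 3 and 24 months, and alternatives not marked otherwise were planned. The alternatives changed which barcodes or genes entered or how they were weighted, and the cause of the differences was not tested further.

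With a hemoglobin limit of 80%, RBC barcodes at 3 months were 1.42% of barcodes, with alpha-globin at 50.8%, Hba-a1 at 57.6% of alpha and Hbb-bs at 84.5% of beta, and 29 genes were 2-fold higher and 28 lower at 24 months. Under the study's filter, RBC barcodes were 0.888% and 0.544% of all barcodes, alpha-globin 47.7% and 51.1%, Hbb-bs 81.1% and 84.5%, and Hba-a1 58.9% at 24 months. Hemoglobin in the other barcodes was then 16.5 and 10.6 per 10000 UMIs and its alpha share 46.9% and 44.0%. Limiting the other barcodes to under 5% hemoglobin gave 9.48 and 7.31 per 10000 and alpha shares of 40.6% and 36.5%, and to under 1% gave 9.43, 7.21, 40.3% and 36.0%.

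Leaving out RBC barcodes with 3 or more UMIs of another class left 0.862% and 0.242% of barcodes, alpha-globin at 53.0% and 57.3%, Hba-a1 at 57.6% and 60.3%, and Hbb-bs at 86.0% and 89.7%. Of the 72 genes that then had 20 or more UMIs, 9 were higher and 13 lower. The log2 ratio of 24 to 3 months was then -1.25 for Mkrn1, -1.21 for Bpgm, -1.46 for Fech and -0.52 for Alas2. With all RBC barcodes it was 0.02, -0.27, -0.72 and 0.24. Gpx1 and Car2 moved the other way, from -1.19 to -0.21 and from -2.71 to -1.61. Of the named genes with a value in this alternative, 13 moved beyond their interval and 7 did not. Not counting choroid plexus and dividing-cell markers as another class, a choice made after seeing the data, gave 35 higher and 78 lower of 336 genes. The log2 ratio was then 0.08 for Mkrn1, -0.43 for Bpgm, -0.50 for Fech and 0.05 for Alas2. With all RBC barcodes the counts were 74 and 169 of 682 genes. Leaving out RBC barcodes with 600 or more non-hemoglobin UMIs, also chosen after seeing the data, gave alpha-globin 51.5% and 53.5%, Hbb-bs 85.4% and 87.1%, Hba-a1 57.7% at 3 months, and 17 genes higher and 19 lower. Equal weights gave alpha-globin 51.04% and 53.3%, Hbb-bs 84.2% and 88.3%, and Hba-a1 58.3% at 3 months. A minimum of 10 UMIs gave 224 genes higher and 296 lower, and of 50 UMIs 20 and 58, with 76 above the other barcodes. Counted per RBC barcode, a choice made after seeing the data, 23 genes were higher and 231 lower. Where the number of genes is not given beside such counts, they cannot be set beside the shares of the 682 genes.

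In every alternative with values at both ages, alpha-globin and Hbb-bs shares of RBC barcodes were higher at 24 months. For named genes with 20 or more UMIs under an alternative, 57 values moved beyond their interval, 175 did not, and no gene past 2-fold changed direction. Genes under 20 UMIs had no value, 12 at the 80% limit, 3 under the study's filter, 23 and 11 without other-class markers and 20 without the RNA-rich barcodes. Depth limits genes with few UMIs most.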
